A study of Homo sapiens with 8 samples.

Results

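The genes described here make cholesterol and fatty acids or move sterols through the cell, together with the SREBP transcription factors and the proteins that sense sterols for them. They were chosen by name as the probe sets of 31 listed genes, of which 29 had a named probe set among the 22458 named genes of the arrays; FDFT1 and HSD17B7 were not analysed here. The cells were Caco-2 clone TC7, a line derived from a human colon carcinoma, transfected overnight, before they were confluent, with 200 ng of plasmid that expresses CRTC1, or with its empty vector, pBS. The CRTC1 group and the empty vector group had 4 arrays each, and all cells were grown in high glucose medium with serum. CRTC1 works as a coactivator of CREB, the transcription factor of the cAMP response. The labels do not give the share of cells that took up plasmid, and each value is an average over all cells of a sample, in which fewer cells of a type and less RNA per cell cannot be told apart. Separate cultures are not stated for the 4 arrays of a group, and the spread between arrays, which every p-value and interval here rests on, may be technical.

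Cholesterol is built from acetyl-CoA through mevalonate, isoprenoid units, squalene and a series of sterols. SREBP1 and SREBP2, made from SREBF1 and SREBF2, are held in the endoplasmic reticulum with the escort protein SCAP, and INSIG proteins keep SCAP there while sterols are plentiful. When sterols run low, SCAP carries SREBP to the Golgi, where proteases free a fragment that enters the nucleus and binds sterol regulatory elements of its target genes, often beside NF-Y on CCAAT boxes. In enterocytes, which Caco-2 cells resemble once differentiated, newly made sterol and sterol absorbed through NPC1L1 both feed the cell's pool. The arrays read mRNA and show neither SREBP cleavage nor sterol content.

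None of the 29 genes passed the test between CRTC1 and empty vector cells, in either direction. In limma's moderated test with Benjamini-Hochberg adjustment over all 22458 genes, 0 of 29 members passed an adjusted p of 0.05, and the lowest adjusted p among them was 0.838. Across all genes 0.00445% passed, which was CRTC1 alone. At an unadjusted p under 0.05 there were again 0 of 29 members, against 5.94% of all genes, 3.2% higher and 2.73% lower with CRTC1. The CRTC1 and empty vector arrays overlapped for every member, while they did not overlap for 3.74% of all genes, 1.68% higher and 2.06% lower. Of the members 14 had a log2 change above 0 and 15 below, the median was -0.01 and the range -0.22 to 0.19. The share above 0 was 48.3% of members and 48.6% of all genes, whose median log2 change was -0.0050. CRTC1 replicate 1 was the lowest array of its group for 17 of 29 members.

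The intervals of the fit show how large a difference between the group averages of these arrays could be. They rest on the spread between arrays, which may be technical. The share of cells that took up plasmid is not given, so a change within those cells is not bounded. The 95% interval of the change lay within 1.5-fold in both directions for all 29 members, against 84.2% of all genes. The sets are unlike in level, since all 29 members lay above the median level and 11229 of the 22458 genes below it. The share among genes of similar level was not taken. The standard error of the log2 change ran from 0.0716 for MVD to 0.152 for TM7SF2 among the members, with a median of 0.0936, where all genes had a median of 0.121. Each interval covers 1 gene and is on the scale of these probe sets. With all CRTC1 and empty vector arrays in the fit, the interval that came closest to 1.5-fold was that of MVK, which ran from 0.695-fold to 1.06-fold.

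**Figure D1:**
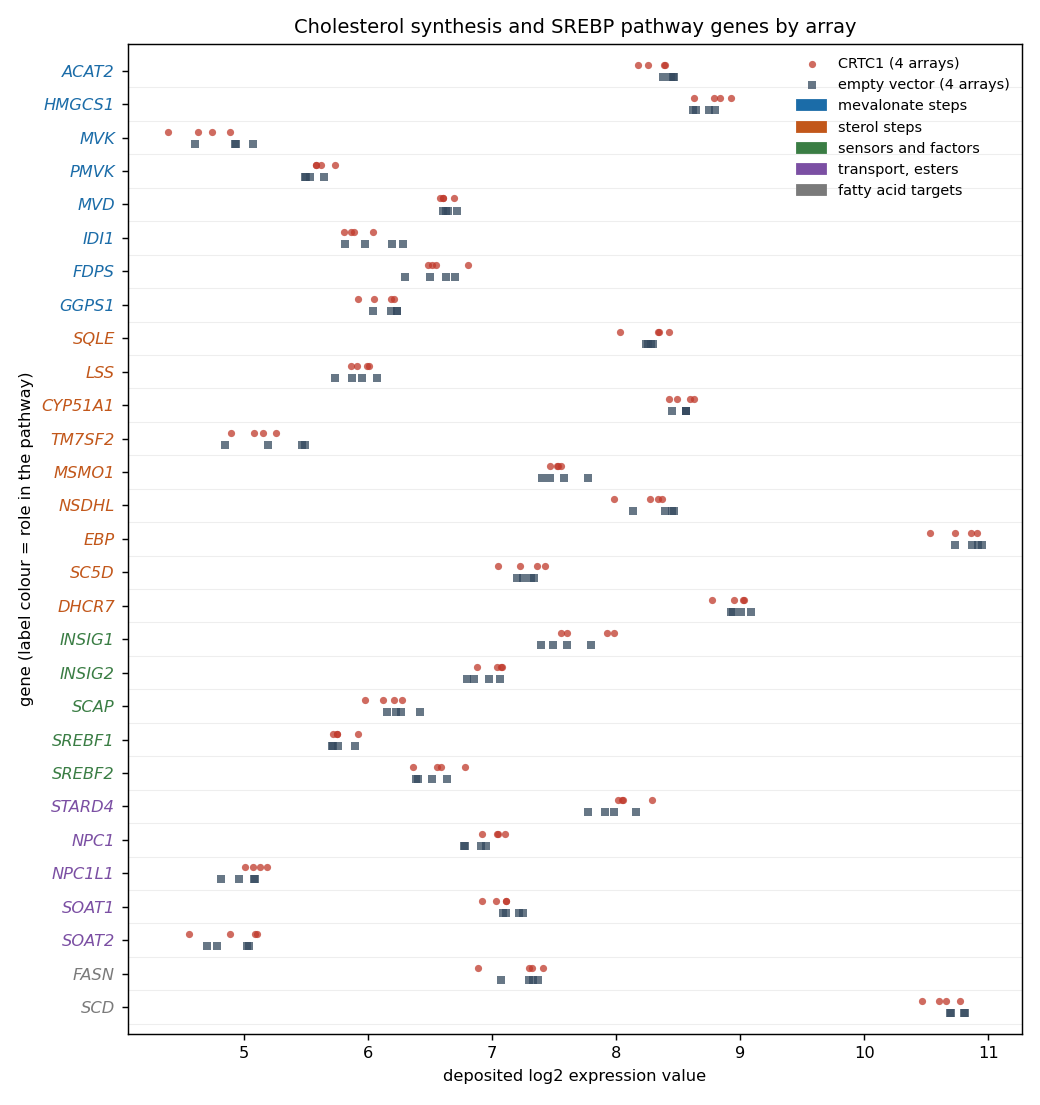
Deposited log2 expression value (x axis) of the 29 measured pathway genes (y axis) on each array, CRTC1 arrays as circles above and empty vector arrays as squares below; label colours give the role in the pathway. The CRTC1 and empty vector arrays overlap for every gene.

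**Figure D2:**
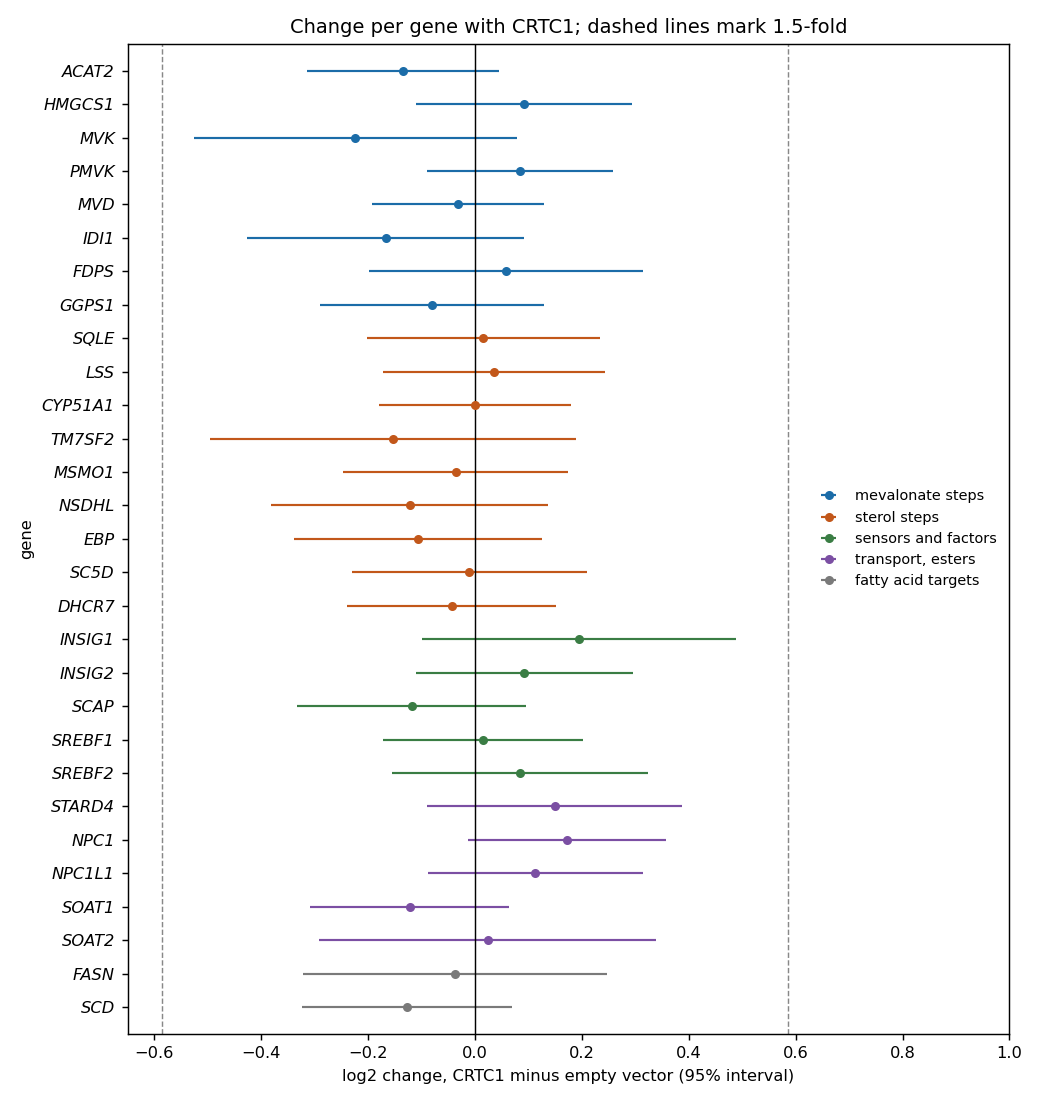
Log2 change of each pathway gene, CRTC1 minus empty vector (x axis), as points with 95% intervals from limma (n = 4 arrays per group), coloured by role. All 29 intervals cross 0 and lie within the dashed lines at 1.5-fold.

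The transfected gene was checked on the same arrays. CRTC1 (Entrez Gene 23373) lay at 12.52, 11.78, 11.70 and 11.46 on CRTC1 replicates 1 to 4, against 5.48, 5.63, 6.30 and 6.19 on empty vector replicates 1 to 4. Array medians over all named genes ran from 4.16 to 4.18 in the CRTC1 group and from 4.14 to 4.19 with empty vector. The mean of 9 epithelial markers lay between 8.37 and 8.62 on the CRTC1 arrays and between 8.47 and 8.64 with empty vector, and 7 of the 9 had a log2 change below 0, with a median of -0.04. KRT20, a keratin of differentiated enterocytes and the dimmest of that list, had group means of 3.60 with CRTC1 and 3.35 with empty vector. Means of 5 hepatocyte markers ran from 2.49 to 2.62 and from 2.42 to 2.68, of 4 leukocyte markers from 3.84 to 4.13 and from 3.99 to 4.33, of 5 fibroblast markers from 3.07 to 3.31 and from 3.18 to 3.33, of 4 endothelial markers from 2.74 to 2.93 and from 2.68 to 3.00, and of 4 adipocyte markers from 2.54 to 2.83 and from 2.54 to 2.80, CRTC1 first. Of these 31 markers 0 had an unadjusted p under 0.05. The leukocyte list was uneven, with CD68 at group means of 7.41 with CRTC1 and 7.48 with empty vector. PTPRC, CD3E and LYZ averaged 1.84, 2.63 and 4.18 with CRTC1, and 1.92, 2.64 and 4.44 with empty vector. All 29 pathway genes had a mean level above 4.16, the median of the mean levels of all named genes, as a description only, since probe sets differ in response.

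CREB binds the cAMP response element TGACGTCA and its core TGACG, so the promoters of the pathway genes were read for these letters, for the core of the sterol regulatory element, TCACNCCAC, and for CCAAT. RefSeq windows (GRCh38.p14) were found for 25 of the 29 members, 33 windows in all, and were searched on both strands over the 250 bases before the annotated start. The core is contained in the full element, and letters of the other motifs can overlap. The full element was in 0 of 25 members and in 2.03% of 27305 genes with a window. The core TGACG was in 11 of 25 members, 44%, against 24.9% of all genes. CCAAT was in 19 of 25, 76%, against 37.0% of all genes. The sterol element core was in 1 of 25, SREBF2, against 1.09% of all genes. The 27305 genes with a window outnumber the 22458 named genes of the arrays, and shares among genes of similar level were not taken. A match of letters is not a binding site, and a window without a match says nothing of the factor.

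Members with and without TGACG in a window had changes over similar ranges. The 11 members with it had log2 changes from -0.17 to 0.19 with a median of -0.01, and 5 of them were above 0. The 14 members without it had log2 changes from -0.22 to 0.17 with a median of -0.01, and 7 were above 0. The 19 members with CCAAT had a median log2 change of -0.04 with 7 above 0, and the 6 without it, CYP51A1, INSIG2, NPC1, PMVK, SCAP and SREBF1, a median of 0.05 with 5 above 0; these are counts over a few genes, with no test. The windows printed are those of SREBF2, the only member with the sterol element core, of INSIG1 and MVK, which had the highest and the lowest log2 change, and of CYP51A1, whose change was closest to 0. Capitals mark TGACG or its complement CGTCA, TCACNCCAC, and CCAAT or its complement ATTGG, and each sequence runs 5′ to 3′ on the gene's strand up to the base before the start.
SREBF2: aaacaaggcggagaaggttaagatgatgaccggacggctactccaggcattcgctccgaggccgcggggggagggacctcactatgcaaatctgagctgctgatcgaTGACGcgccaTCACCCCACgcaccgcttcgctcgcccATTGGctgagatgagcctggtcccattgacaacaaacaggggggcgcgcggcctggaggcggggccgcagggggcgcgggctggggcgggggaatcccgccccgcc
INSIG1: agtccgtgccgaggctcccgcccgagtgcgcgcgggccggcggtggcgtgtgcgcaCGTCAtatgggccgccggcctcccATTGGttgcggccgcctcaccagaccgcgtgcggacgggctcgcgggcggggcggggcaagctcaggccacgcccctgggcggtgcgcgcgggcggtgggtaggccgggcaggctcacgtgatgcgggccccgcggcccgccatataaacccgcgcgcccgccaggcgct
MVK: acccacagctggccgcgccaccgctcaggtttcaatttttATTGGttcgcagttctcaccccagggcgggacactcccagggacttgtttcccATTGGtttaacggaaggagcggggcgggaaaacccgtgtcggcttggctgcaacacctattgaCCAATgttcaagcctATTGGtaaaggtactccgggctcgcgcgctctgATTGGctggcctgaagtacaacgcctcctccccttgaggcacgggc
CYP51A1: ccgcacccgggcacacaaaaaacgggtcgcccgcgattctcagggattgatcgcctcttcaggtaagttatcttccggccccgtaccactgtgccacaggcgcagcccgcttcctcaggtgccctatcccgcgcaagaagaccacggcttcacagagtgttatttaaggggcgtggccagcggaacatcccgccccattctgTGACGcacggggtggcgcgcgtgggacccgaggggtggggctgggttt

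The SREBF2 window (chr22:41832855-41833104, plus strand) holds TGACG from 143 to 139 bases before the start, the sterol element core from 133 to 125 and an inverted CCAAT from 106 to 102. Its own product binds sterol elements, and SREBF2 mRNA differed by 0.08 on the log2 scale. INSIG1 (chr7:155297628-155297877, plus strand) has an inverted TGACG from 194 to 190 and an inverted CCAAT from 170 to 166 bases before the start. MVK (chr12:109573544-109573793, plus strand) has 5 CCAAT matches, 4 of them inverted, and no TGACG. CYP51A1 (chr7:92134478-92134727, minus strand) has TGACG from 48 to 44 bases before its start and no CCAAT; its log2 change was 0.0005.

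The steps from acetyl-CoA to the isoprenoids were measured by 8 genes, 3 of them with a log2 change above 0 and 5 below, with a median of -0.06, and 0 passed the test. ACAT2 (Entrez Gene 39) encodes the cytosolic thiolase that joins acetyl-CoA units, and shares an old name with the esterifying enzyme SOAT2. ACAT2 lay at 8.18, 8.26, 8.38 and 8.39 on CRTC1 replicates 1 to 4, against 8.38, 8.44, 8.46 and 8.47 with empty vector. Only the lowest empty vector array, replicate 1, lay within the CRTC1 range. The log2 change was -0.13 (standard error 0.0800), with an adjusted p of 0.861 and an exact two-sided permutation p of 0.0857. For 4 against 4 arrays, 0.0286 is the smallest that this test can give.

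MVK (Entrez Gene 4598), mevalonate kinase, lay at 4.63, 4.39, 4.74 and 4.89 on CRTC1 replicates 1 to 4, against 5.07, 4.92, 4.94 and 4.60 with empty vector. The CRTC1 arrays lay below the empty vector arrays except that empty vector replicate 4 was lower than all but 1 of them. The log2 change of -0.22, the lowest among the members, had a standard error of 0.134 and an adjusted p of 0.861. With single arrays left out it ran from -0.32 without empty vector replicate 4 (adjusted p = 0.925) to -0.13 without CRTC1 replicate 2 (adjusted p = 0.939). With both arrays of a replicate number left out it ran from -0.39 without replicate 4 (adjusted p = 0.872) to -0.12 without replicate 2 (adjusted p = 0.975). IDI1 (Entrez Gene 3422), which turns the isoprenoid unit into its reactive isomer, lay at 5.86, 5.89, 5.80 and 6.04 with CRTC1, against 5.98, 6.19, 5.81 and 6.28 with empty vector. The empty vector arrays spread more widely than the CRTC1 arrays and overlapped them, and the log2 change was -0.17 (standard error 0.115, adjusted p = 0.868). It was -0.25 without empty vector replicate 3 and -0.10 without empty vector replicate 4.

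The other mevalonate genes lay closer to 0, and their levels are given as mean ± SD over 4 arrays a group. HMGCS1, which makes HMG-CoA, averaged 8.79 ± 0.126 on CRTC1 arrays and 8.70 ± 0.0848 on empty vector arrays, a log2 change of 0.09. PMVK, phosphomevalonate kinase, averaged 5.63 ± 0.0711 with CRTC1 and 5.54 ± 0.0699 with empty vector, a log2 change of 0.08. MVD, the decarboxylase that follows it, averaged 6.62 ± 0.0491 and 6.65 ± 0.0458 in the same order. The differences of these 3 genes were smaller than the SD of a group or close to it. FDPS, which builds farnesyl diphosphate, had a log2 change of 0.06, and its lowest array was empty vector replicate 1, at 6.29. GGPS1, which makes the geranylgeranyl diphosphate used to anchor proteins in membranes, had a log2 change of -0.08.

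Of the enzymes from squalene to cholesterol 9 were measured, with 3 log2 changes above 0 and 6 below, a median of -0.04 and 0 past the test. Their changes ran from -0.15 to 0.04. TM7SF2 (Entrez Gene 7108), a sterol reductase, lay at 4.89, 5.08, 5.26 and 5.15 on CRTC1 replicates 1 to 4, against 4.84, 5.19, 5.49 and 5.47 with empty vector. In both groups replicate 1 was the lowest, and the empty vector SD of 0.302 was the largest among the members. The log2 change was -0.15 (adjusted p = 0.893), and it ran from -0.29 without empty vector replicate 1 to -0.07 without empty vector replicate 3 when single arrays were left out. It was -0.08 without empty vector replicate 4 and -0.09 without CRTC1 replicate 1.

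NSDHL (Entrez Gene 50814), a dehydrogenase that acts in removing methyl groups from the sterol ring, lay at 7.98, 8.27, 8.34 and 8.37 with CRTC1, against 8.14, 8.45, 8.39 and 8.47 with empty vector. Replicate 1 was again the lowest array of both groups. The log2 change, -0.12 (standard error 0.115) with an adjusted p of 0.887, was -0.04 without CRTC1 replicate 1 and -0.20 without empty vector replicate 1. EBP (Entrez Gene 10682), the sterol isomerase also known as emopamil binding protein, lay at 10.53, 10.74, 10.91 and 10.86 with CRTC1, against 10.73, 10.95, 10.87 and 10.91 with empty vector. The log2 change, -0.11 (standard error 0.103) with an adjusted p of 0.889, was -0.03 without CRTC1 replicate 1.

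The remaining sterol enzymes averaged nearly the same level in both groups. SQLE, squalene epoxidase, averaged 8.28 ± 0.173 with CRTC1 and 8.27 ± 0.0260 with empty vector. CRTC1 replicate 1 lay at 8.03 and the other CRTC1 arrays between 8.33 and 8.43, while the empty vector arrays lay between 8.24 and 8.30. The log2 change of SQLE was 0.02, and 0.10 without CRTC1 replicate 1. CYP51A1, the lanosterol demethylase, averaged 8.54 ± 0.0936 on CRTC1 arrays and 8.53 ± 0.0577 on empty vector arrays. LSS, which closes squalene epoxide into lanosterol, had a log2 change of 0.04, MSMO1, the sterol methyl oxidase, of -0.04, SC5D, the sterol desaturase, of -0.01, and DHCR7, the final reductase, of -0.04. For each of these 6 genes the adjusted p was at least 0.952. Without CRTC1 replicate 1 the change was 0.06 for SC5D and 0.01 for DHCR7, and without empty vector replicate 1 it was 0.04 for MSMO1.

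Among the sensors and transcription factors 4 of 5 had a log2 change above 0, with a median of 0.08 and 0 past the test. INSIG1 (Entrez Gene 3638), itself a target of SREBP, lay at 7.98, 7.60, 7.92 and 7.55 on CRTC1 replicates 1 to 4, against 7.49, 7.80, 7.40 and 7.60 with empty vector. A pair of CRTC1 arrays, replicates 1 and 3, lay above all empty vector arrays and the other pair lay inside their range. The log2 change of 0.19, the highest among the members, had a standard error of 0.131, an adjusted p of 0.864 and an exact two-sided permutation p of 0.2. It was 0.12 without CRTC1 replicate 1 and 0.27 without empty vector replicate 2. INSIG2 (Entrez Gene 51141), the related retention protein, lay at 7.04, 7.08, 7.07 and 6.88 with CRTC1, against 7.06, 6.98, 6.86 and 6.80 with empty vector, a log2 change of 0.09 (adjusted p = 0.890).

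SCAP (Entrez Gene 22937) was the exception in sign, at 5.98, 6.12, 6.21 and 6.28 with CRTC1, against 6.22, 6.26, 6.16 and 6.42 with empty vector. The groups overlapped and the log2 change was -0.12 (standard error 0.0950, adjusted p = 0.878). It was -0.06 without CRTC1 replicate 1 and -0.07 without empty vector replicate 4. SREBF1, whose probe set does not tell its promoter variants apart, averaged 5.785 ± 0.0900 with CRTC1 and 5.77 ± 0.0866 with empty vector. SREBF2 averaged 6.57 ± 0.171 and 6.49 ± 0.117 in the same order. For SREBF1 and SREBF2 the log2 changes of 0.01 and 0.08 lay below the SD of either group, and without CRTC1 replicate 1 they were -0.03 for SREBF1 and 0.02 for SREBF2.

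Of the genes for sterol transport and esterification 4 of 5 had a log2 change above 0, with a median of 0.11 and 0 past the test. NPC1 (Entrez Gene 4864), which carries cholesterol out of lysosomes, lay at 7.11, 7.04, 7.04 and 6.92 on CRTC1 replicates 1 to 4, against 6.95, 6.91, 6.78 and 6.77 with empty vector. The groups overlapped only because CRTC1 replicate 4 lay below empty vector replicate 1. NPC1 had the smallest p among the members, a log2 change of 0.17 (standard error 0.0820), an adjusted p of 0.838 and an exact two-sided permutation p of 0.0571. Over all 19 alternative fits its log2 change stayed between 0.14 and 0.21 and its adjusted p between 0.660 and 0.970.

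STARD4 (Entrez Gene 134429), a soluble sterol carrier and SREBP target, lay at 8.29, 8.06, 8.05 and 8.02 with CRTC1, against 7.98, 8.16, 7.91 and 7.77 with empty vector. Empty vector replicate 2 was above all CRTC1 arrays but replicate 1, and the log2 change was 0.15 (standard error 0.106, adjusted p = 0.871). It was 0.09 without CRTC1 replicate 1, likewise 0.09 without empty vector replicate 4, and 0.22 without empty vector replicate 2. SOAT1 (Entrez Gene 6646), which esterifies cholesterol in most cells, lay at 6.91, 7.03, 7.11 and 7.11 with CRTC1, against 7.09, 7.11, 7.25 and 7.22 with empty vector. Its log2 change was -0.12 (standard error 0.0824, adjusted p = 0.865), and -0.08 without CRTC1 replicate 1. SOAT2, the esterifying enzyme of enterocytes and hepatocytes, averaged 4.91 ± 0.255 on CRTC1 arrays and 4.88 ± 0.171 on empty vector arrays. Its log2 change of 0.02 was 0.14 without CRTC1 replicate 1. NPC1L1, the intestinal cholesterol importer blocked by ezetimibe, averaged 5.10 ± 0.0780 with CRTC1 and 4.98 ± 0.126 with empty vector, a log2 change of 0.11 (adjusted p = 0.877) that was 0.06 without empty vector replicate 2.

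The mean of the 5 transport genes lay at 6.41, 6.42, 6.46 and 6.46 on CRTC1 replicates 1 to 4, against 6.34, 6.36, 6.41 and 6.38 with empty vector. The lowest CRTC1 array, at 6.4108, and the highest empty vector array, at 6.4075, were nearly level. No test of this mean was made, since the genes were chosen with earlier results known.

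Both fatty acid targets of SREBP had log2 changes below 0, and neither passed. FASN (Entrez Gene 2194), fatty acid synthase, lay at 6.89, 7.30, 7.32 and 7.41 with CRTC1, against 7.08, 7.33, 7.37 and 7.30 with empty vector. Replicate 1 was the lowest of both groups, and the log2 change of -0.04 (adjusted p = 0.975) was 0.08 without CRTC1 replicate 1. SCD (Entrez Gene 6319), the stearoyl-CoA desaturase, lay at 10.47, 10.66, 10.60 and 10.77 with CRTC1, against 10.70, 10.81, 10.69 and 10.81 with empty vector. Its log2 change was -0.13 (standard error 0.0874, adjusted p = 0.868), and -0.07 without CRTC1 replicate 1.

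Single arrays stood apart across many of these genes. CRTC1 replicate 1 was the lowest of its 4 arrays for 17 of 29 members, 58.6%, where it was the lowest for 28.8% of all genes. All 9 sterol enzymes lay below their group mean on that array, with deviations from -0.26 to -0.03 and a median of -0.20, and 8 of 9 had their lowest CRTC1 value there, LSS being the exception. On the same array all genes had a median deviation of -0.0079. For 13 members, 44.8% against 16.8% of all genes, it was the lowest of all 8 arrays. They were ACAT2, MVD, SQLE, CYP51A1, NSDHL, EBP, SC5D, DHCR7, SCAP, SOAT1, SOAT2, FASN and SCD. By contrast INSIG1, SREBF1, SREBF2, STARD4, NPC1 and NPC1L1 had their highest value of all 8 arrays on CRTC1 replicate 1. That was 20.7% of members, against 14.6% of all genes. These 6 are transcription factors, a sensor and transport genes, but SCAP, SOAT1 and SOAT2, of the same roles, were among the 13 lowest. GGPS1, an enzyme, had its highest value of the CRTC1 group on that array.

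CRTC1 replicate 4 stood at the other end, the highest of its 4 arrays for 15 of 29 members, against 26.2% of all genes. In the empty vector group, replicate 1 was the lowest for 31.0% of members, close to its 27.6% of all genes. Replicate 4 of that group was the highest for 37.9% of members, against 25.7% of all genes. Below the group mean lay 21 of 29 members on CRTC1 replicate 1 and likewise 21 on empty vector replicate 1. Of all genes 51.9% and 52.2% did so. For the 9 sterol enzymes the counts were 9 and 7. On replicate 4 the members below it numbered 6 with CRTC1 and 7 with empty vector, against 49.2% and 49.5% of all genes. CRTC1 replicate 1 also had the highest CRTC1 level of its group, and replicate 4 the lowest. The mean of the epithelial markers was likewise lowest in the CRTC1 group on replicate 1, at 8.37 against 8.54 to 8.62 on the other CRTC1 arrays, and its part in these values was not tested. With 4 arrays in a group, a relation between the level of CRTC1 and that of the sterol enzymes was not tested. Without CRTC1 replicate 1, 16 of 29 members had a log2 change above 0, with a median of 0.02; without CRTC1 replicate 4 there were 10, with a median of -0.04.

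**Figure D3:**
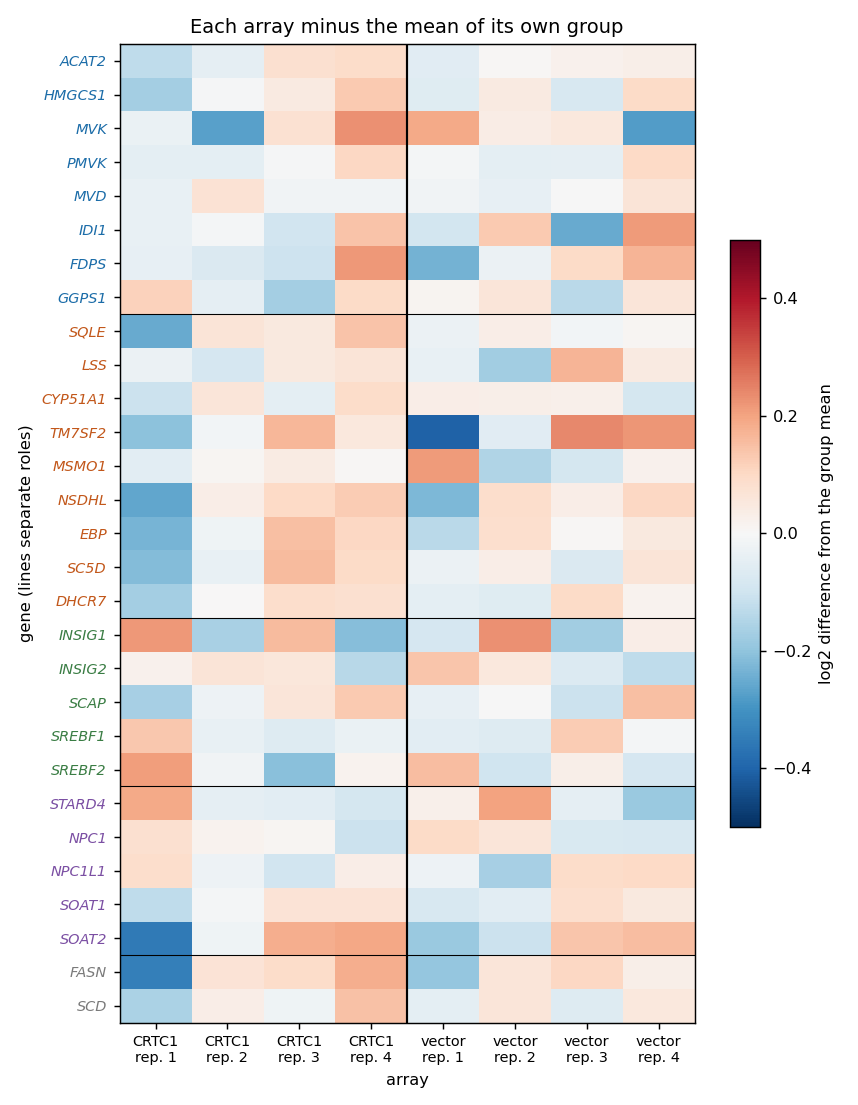
Difference of each array (columns, CRTC1 left and empty vector right) from the mean of its own group, for the 29 pathway genes (rows, ordered by role), on the log2 scale shown by the colour bar. The 9 sterol enzymes are all below their group mean on CRTC1 replicate 1, while INSIG1, SREBF1, SREBF2 and STARD4 are above theirs.

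Lists of related genes were read in the same fit. Of 12 measured genes for the cleavage and transport of SREBP and the sterol-regulated degradation machinery, 7 had a log2 change above 0 with a median of 0.02. At the adjusted threshold 0 passed, and 0 had an unadjusted p under 0.05. SEC24D, a cargo subunit of the vesicle coat that leaves the endoplasmic reticulum, lay at 7.40, 7.13, 7.14 and 6.66 with CRTC1, against 6.99, 6.80, 6.74 and 6.47 with empty vector. The log2 change, 0.33 (standard error 0.165) with an adjusted p of 0.841, was larger than that of any pathway member, and so was its standard error. RNF139, a ubiquitin ligase of the endoplasmic reticulum, differed by 0.13 on the log2 scale (adjusted p = 0.877), and by 0.22 without empty vector replicate 2. With the replicate number as a block, SEC24D had an unadjusted p of 0.00550 (adjusted p = 0.602), so that 1 of 12 had an unadjusted p under 0.05.

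Among 18 genes of fatty acid and glycerolipid synthesis 5 had a log2 change above 0 and 13 below, with a median of -0.04. None passed over all genes, and 2 had an unadjusted p under 0.05, both lower with CRTC1, as were 2.73% of all genes. GPAM, which starts glycerolipid synthesis in mitochondria, lay at 6.07, 6.10, 6.05 and 6.22 with CRTC1, against 6.26, 6.51, 6.35 and 6.42 with empty vector. ELOVL6, an elongase of saturated fatty acids, lay at 5.01, 4.66, 5.00 and 4.86 with CRTC1, against 5.02, 5.27, 5.31 and 5.26 with empty vector. For both GPAM and ELOVL6 all CRTC1 arrays lay below all empty vector arrays, for ELOVL6 only narrowly, with 5.0114 as the highest CRTC1 value and 5.0168 as the lowest with empty vector. Of all genes 2.06% likewise had no overlap with CRTC1 lower. Their log2 changes, those of GPAM and ELOVL6, were -0.27 (standard error 0.0841) and -0.33 (standard error 0.107). Each had an adjusted p of 0.837 and an exact two-sided permutation p of 0.0286, which every gene without overlap reaches.

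In the isoprenoid branches, which lead to dolichol, ubiquinone and prenylated proteins, 3 of 10 measured genes had a log2 change above 0, with a median of -0.04, and 0 passed the test or had an unadjusted p under 0.05. ICMT, which methylates prenylated proteins, differed by -0.16 on the log2 scale (adjusted p = 0.861), and PDSS2, a subunit of the enzyme that makes the ubiquinone tail, of -0.16 (adjusted p = 0.864). Without CRTC1 replicate 1 these were -0.09 for ICMT and -0.10 for PDSS2, and PDSS2 was -0.09 without empty vector replicate 4. Of 15 genes of the LXR sterol response and sterol transport 6 had a log2 change above 0, with a median of -0.03, and again 0 passed either threshold. OSBP, an oxysterol binding protein that exchanges sterol between membranes, lay at 7.50, 7.62, 7.52 and 7.52 with CRTC1, against 7.42, 7.36, 7.36 and 7.42 with empty vector. The OSBP groups did not overlap, and neither did those of ZMPSTE24 in the isoprenoid list, where CRTC1 was lower. Each was the only such gene of its list, where 1.68% of all genes had no overlap with CRTC1 higher and 2.06% with CRTC1 lower. For OSBP the log2 change was 0.15 (standard error 0.0714, adjusted p = 0.838). STARD3, a late endosomal sterol carrier, had a log2 change of -0.18 (adjusted p = 0.852).

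**Figure D4:**
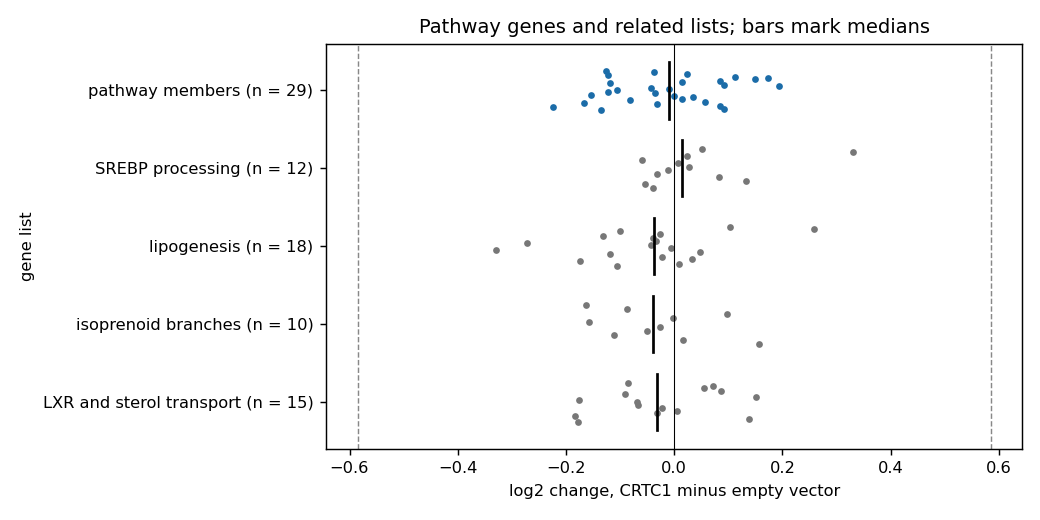
Log2 change, CRTC1 minus empty vector (x axis), of each gene as a point in the pathway and in 4 related lists (y axis, number of measured genes in brackets); black bars mark list medians and dashed lines 1.5-fold. Medians lie between -0.04 and 0.02, and GPAM and ELOVL6 are the lowest points of the lipogenesis list.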

How the data were processed

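Per the labels' protocols, biotin-labelled cDNA was prepared from total RNA with an Affymetrix whole-transcript kit; 8 arrays were run. The authors deposited 1 log2 value for each probe set on each array. The submitters' processing notes name Partek, without its role, and the sources used here do not give how signals were background-corrected, summarised and normalized. That the scale is log2 was read from the deposited values. Arrays scaled to nearly equal distributions cannot show a shift shared by most genes. No depth or detection call comes with them, so precision rests on 4 arrays a group.

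Gene names came from the platform annotation, updated through Entrez identifiers with RefSeq (GRCh38.p14). A single gene symbol was held by 22458 of 23786 probe sets, several by 0, and the 1328 unnamed ones entered only an alternative. All 22458 matched RefSeq, with 1 probe set per gene.

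Using limma 3.58.1 in R 4.3.3, the empty vector level and the CRTC1 minus empty vector difference were fitted to the 8 arrays with no block. The p-values of the difference were adjusted over all 22458 genes (Benjamini-Hochberg, threshold 0.05). Intervals are 95% intervals of that fit. For single genes an exact two-sided permutation test was added. The fit was tested on simulated data. The members, lists and tests were chosen with earlier results of these data known. All members were named. Described array by array were the 3 members of each role with the smallest p, and any with an unadjusted p under 0.05 or groups that did not overlap; of each related list the 2 genes with the smallest p were named. Promoter sequences are those of RefSeq.

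Equal replicate numbers were not taken as pairs, because the labels do not say what they share. The deviations of same-numbered arrays from their group means also did not all correlate above 0.1. They correlated by 0.04 to 0.25, though, and each array correlated best with that of its own number, so a block was fitted as an alternative. Alternatives covered a replicate block, normalization, centring, dim genes, variance models, array weights, all probe sets and leaving out arrays or replicate numbers.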

Additional observations from a re-analysis of the deposited data

Results flagged for a closer look

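Of 88 groups of 4 arrays tested with Dixon's test for an array far from the others, 5 had one, and chance gives about 4.4. In the CRTC1 group, SREBF1 was 5.918 in replicate 1 while the rest of the group ran from 5.720 to 5.753, and STARD4 was 8.293 in replicate 1 while the rest ran from 8.017 to 8.058. The mean of the mevalonate genes was 6.696 in CRTC1 replicate 4, and the rest of that group ran from 6.519 to 6.549. In the empty vector group, CYP51A1 was 8.449 in replicate 4 while the rest ran from 8.562 to 8.567, and ELOVL6 was 5.017 in replicate 1 while the rest ran from 5.258 to 5.306.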

How the results depend on the processing

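In all 19 alternative fits 0 of 29 members passed the adjusted threshold, and the lowest adjusted p of any member was 0.660, that of NPC1 among genes at or above the median level. Of 551 member values, 35 took the other sign, all from 10 members whose log2 change with all arrays was at most 0.06 in size, and 0 moved by as much as the SD within groups. Members at an unadjusted p under 0.05 numbered 1 with quantile normalization and 1 among genes at or above the median level (NPC1 in both), and 2 with a variance trend and robust moderation (NPC1 and ACAT2), against 0 as reported. They numbered 0 to 2 with arrays or replicate numbers left out, with 2 without empty vector replicate 1 (TM7SF2 and NPC1). The others were NPC1 without CRTC1 replicate 4, IDI1 without empty vector replicate 3, and MVK without empty vector replicate 4 or without replicate 4. The smallest unadjusted p of these fits, 0.0132 in the limma test, was that of MVK without replicate 4 (adjusted p = 0.872). Genes past the adjusted threshold numbered 2 with a variance trend and robust moderation, CRTC1 and the histone gene H3C4, and 1 in every other fit. The causes were not tested. With arrays left out, the median of the members ran from -0.04 to 0.02, and 27 to 29 intervals lay within 1.5-fold.

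With the replicate number as a block (replicate block), 0 members passed, 0 had an unadjusted p under 0.05, 28 of 29 intervals lay within 1.5-fold and CRTC1 was the 1 gene past the threshold. Same-numbered arrays had deviations from their group means that correlated by 0.25, 0.04, 0.06 and 0.12 for numbers 1 to 4, across genes. Each array correlated best with the array of its own number, a hint from the data and not from the design. With the block 1677 of all genes had an unadjusted p under 0.05, against 1333 without it. In the related lists, 0 genes passed the adjusted threshold in any of these fits. Those at an unadjusted p under 0.05 numbered 0 or 1 of the SREBP processing genes (1 with the block, SEC24D) and of the LXR and sterol transport genes, 0 of the isoprenoid genes, and 0 (without replicate 2) to 3 (without CRTC1 replicate 4) of the lipogenesis genes.

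The number of arrays limits the precision, and changes smaller than the intervals given could not be seen.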
